A study of Homo sapiens with 8 samples.

Results

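The BEX and TCEAL genes were followed across 4 groups of stable HEK293T cell lines, a line of human embryonic kidney cells. The members were chosen by name, as BEX1, BEX2, BEX3 (older name NGFRAP1), BEX4, BEX5, TCEAL1, TCEAL3, TCEAL4, TCEAL7, and TCEAL8, when values of these same arrays were already known. Through the RefSeq transcript given for each probe, 9 of the 10 had a probe, out of 19480 named genes on the arrays, and the expression of TCEAL3 was not analysed here. The 9 genes had 10 probes, since TCEAL8 had 2.

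Each group held 2 cell lines, and each line had been grown from a single colony after transfection and blasticidin S selection. Empty vector (clones #1 and #2) carried the plasmid alone. TET1-CDwt (#2 and #5) carried the catalytic domain of TET1, an enzyme that oxidizes 5-methylcytosine. MBD-TET1-CDwt (#3 and #10) carried a fusion of that domain with the part of MBD2 that binds methylated CpG (the MBD), and MBD-TET1-CDmut (#9 and #10) carried the same fusion with an inactive catalytic domain. All groups shared the parental cell line and the selection. The comparison of MBD-TET1-CDwt with empty vector asks which genes differ when the enzyme is brought to methylated DNA, the comparison with MBD-TET1-CDmut asks which of these differences need the active enzyme, and TET1-CDwt shows the enzyme without targeting.

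The BEX (brain expressed X-linked) and TCEAL (transcription elongation factor A-like) genes form a cluster on the long arm of the X chromosome and encode small acidic proteins. TCEAL proteins are named for their likeness to TFIIS, the factor that restarts stalled RNA polymerase II and that is encoded by the TCEA genes. BEX1 and BEX3 bind the neurotrophin receptor p75NTR, the product of NGFR. BEX1 and BEX2 are known to be silenced together with promoter methylation in gliomas, and loss of TCEAL7 with promoter methylation has been described in ovarian cancer.

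One array was hybridized per cell line. Values are log2 spot intensities after subtraction of the array's 75th percentile, so 0 is the 75th percentile of the array and 1 unit is 2-fold. This percentile was an intensity of 328 to 527, no spot was saturated, and 63.2% to 68.2% of 34127 probes were well above background, the scanner software's own call. Slide 1 held empty vector and TET1-CDwt, slide 2 the MBD fusions, so slide and construct cannot be told apart where a fusion is set against empty vector. The 8 markers fixed for HEK293-like cells (VIM, KRT8, KRT18, NEFM, PAX2, LHX1, EYA1, and CD24) were well above background on all 8 arrays. On every array 2 of 3 leukocyte markers (PTPRC among them), 1 of 2 endothelium markers (CDH5), and 1 of 2 hepatocyte markers (APOA1) were also well above background and the others were not. Of the 6 neuron markers, 4 to 6 were, and the part of these markers in the results was not tested. TET1 was no higher in the construct clones on its brightest probe (2.61 to 2.85) than in empty vector (2.62 and 2.94), and its other probe lay between -1.55 and -0.70 over the 8 arrays. Where these probes lie relative to the transfected fragment was not known, so they do not check the constructs.

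BEX1 was the member that stood highest in MBD-TET1-CDwt against the other groups. Its normalized log2 signal was -2.55 in MBD-TET1-CDwt #3 and -3.39 in #10. It was -5.81 and -5.33 in empty vector #1 and #2, -5.78 and -5.39 in TET1-CDwt #2 and #5, and -5.38 and -5.81 in MBD-TET1-CDmut #9 and #10. Both MBD-TET1-CDwt clones lay above the other 6 arrays, whereas the other 3 groups overlapped one another. BEX1 was not well above background in empty vector #1 or in either MBD-TET1-CDmut clone, and passed this call on the remaining 5 arrays. The group means were -2.97 ± 0.59 (SD, n = 2) for MBD-TET1-CDwt, -5.57 ± 0.34 for empty vector, -5.58 ± 0.28 for TET1-CDwt, and -5.60 ± 0.30 for MBD-TET1-CDmut. The last 3 means lay closer together than the spread of their clones. The log2 difference from empty vector was 2.59 (standard error 0.34, 6.04-fold), and of the empty vector arrays only #2 had a BEX1 signal well above background. Within slide 2, the mean in MBD-TET1-CDwt exceeded that in MBD-TET1-CDmut at least 5.59-fold, with the lowest signal well above background on the array in place of the dimmer value of clone #10. Since the members were chosen with these arrays known, these values are a description. Under a background correction with an added offset (normexp), the difference from empty vector was 0.56 and that from MBD-TET1-CDmut was 0.59. In the same setting the difference of TET1-CDwt from empty vector was -0.47. In the limma fit BEX1 did not pass adjustment over all probes (limma adjusted p = 0.0927 from empty vector and 0.0854 from MBD-TET1-CDmut). The limma adjusted p was 0.0664 and 0.0641 under median scaling and 0.0834 and 0.0884 under quantile normalization. It was 0.211 and 0.205 with no filter on dim probes, and 0.945 and 0.729 under normexp. With only the 4 arrays compared, or with a trend and robust prior, 0 members were called, and the adjusted p of these fits is not given. The differences were 3.01 and 3.04 without MBD-TET1-CDwt #10, and 2.175 and 2.203 without #3. In these fits the clone left stands alone and is assumed to vary like the other groups. An array reads the RNA of a whole culture, so more BEX1 RNA per cell and more cells with BEX1 RNA cannot be told apart.

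**Figure D1:**
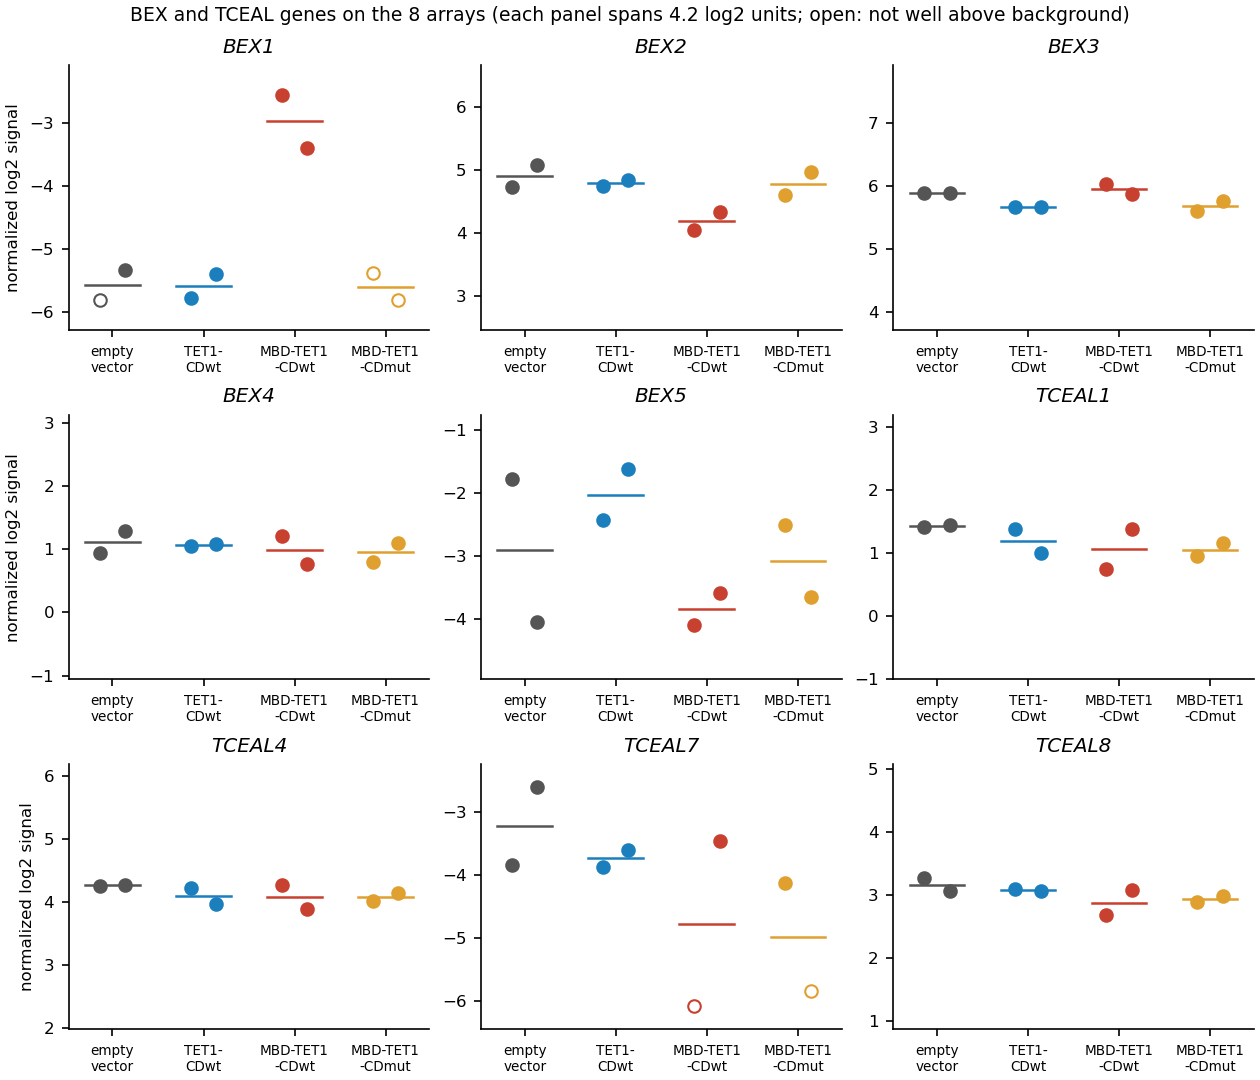
Normalized log2 signal (vertical axis) of each of the 9 member genes in the 4 groups of clones, with 1 point per array, a line at the group mean, and open points where the probe was not well above background. Every panel spans the same number of log2 units. BEX1 reached -2.55 and -3.39 in MBD-TET1-CDwt and at most -5.33 elsewhere, BEX2 was lowest in MBD-TET1-CDwt, and BEX5 and TCEAL7 differed between clones of one construct.

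The promoters of BEX1, BEX2, and BEX3 are shown because BEX1 and BEX2 lay on opposite sides of the control groups in MBD-TET1-CDwt and because BEX3, which did not, shares a stretch with BEX1. They are RefSeq windows (GRCh38.p14) of 300 bases, from 250 before to 50 after the transcription start site, printed 5′ to 3′ in the direction of transcription. The capitals mark CG dinucleotides, the sites where cytosine can be methylated and to which the MBD binds when they are methylated. DNA methylation at these sites was not analysed here.
BEX1, chrX:103064122-103064421, minus strand: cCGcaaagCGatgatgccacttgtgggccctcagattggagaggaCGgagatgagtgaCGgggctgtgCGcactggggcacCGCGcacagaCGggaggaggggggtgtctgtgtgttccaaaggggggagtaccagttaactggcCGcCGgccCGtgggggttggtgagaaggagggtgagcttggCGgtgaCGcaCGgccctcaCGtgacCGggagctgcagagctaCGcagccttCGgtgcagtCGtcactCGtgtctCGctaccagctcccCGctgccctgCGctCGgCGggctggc
BEX2, chrX:103310941-103311240, minus strand: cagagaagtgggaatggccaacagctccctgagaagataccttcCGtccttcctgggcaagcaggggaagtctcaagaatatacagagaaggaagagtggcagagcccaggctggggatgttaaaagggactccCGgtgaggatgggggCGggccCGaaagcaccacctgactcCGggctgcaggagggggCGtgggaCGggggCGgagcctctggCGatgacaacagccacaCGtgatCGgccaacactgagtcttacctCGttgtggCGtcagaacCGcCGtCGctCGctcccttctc
BEX3, the second of its 3 windows, chrX:103376288-103376587, plus strand: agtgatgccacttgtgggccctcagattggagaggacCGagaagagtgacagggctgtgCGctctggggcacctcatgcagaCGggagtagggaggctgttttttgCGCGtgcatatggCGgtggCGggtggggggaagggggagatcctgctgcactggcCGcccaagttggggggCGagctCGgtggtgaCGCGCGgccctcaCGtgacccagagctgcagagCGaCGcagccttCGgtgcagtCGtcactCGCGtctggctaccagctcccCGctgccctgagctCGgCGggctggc

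The BEX1 window held 25 CG dinucleotides, the BEX2 window 17, and the BEX3 window 23. Over all 35116 windows the median was 14, and 32.0% of windows had at least as many as BEX1. Around the start site, the BEX1 and BEX3 windows printed above shared stretches that carry CG. Their longest shared run, of 35 bases, lay further upstream, and no window of another gene held it. This run began at position -239 from the start site in BEX1 and at -248 in this BEX3 window, and it carried no CG.
The shared run of BEX1 and BEX3: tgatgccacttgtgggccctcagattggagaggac
BEX2 shared its longest run, of 45 bases, with BEX4, and no other gene's window held that run.
The shared run of BEX2 and BEX4, with its CG in capitals: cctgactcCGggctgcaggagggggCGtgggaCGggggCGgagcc
The clones of MBD-TET1-CDwt lay apart from empty vector for BEX1 and BEX2 and overlapped with it for BEX3 and BEX4. Of all probes tested, 30.8% were free of overlap in this comparison. The part of the shared runs in expression was not tested.

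BEX2, which encodes a protein close to that of BEX1, was lowest in MBD-TET1-CDwt. Its log2 signal was 4.04 in #3 and 4.33 in #10, against 4.72 and 5.08 in empty vector #1 and #2, 4.75 and 4.84 in TET1-CDwt #2 and #5, and 4.59 and 4.96 in MBD-TET1-CDmut #9 and #10. Both MBD-TET1-CDwt clones lay below the other 6 arrays, and the other 3 groups overlapped. Empty vector was 1.64-fold and MBD-TET1-CDmut 1.51-fold above MBD-TET1-CDwt, with log2 differences of -0.72 and -0.59 for MBD-TET1-CDwt (standard error 0.22 for each). Both differences kept this direction under normexp, median scaling, and quantile normalization, where that from empty vector was -0.69, -0.68, and -0.75. With a clone left out it lay between -0.90 and -0.54, but groups that do not overlap cannot turn sign in this way. The remaining settings repeated the main value. BEX2 was well above background on all 8 arrays, including the 3 on which the BEX1 probe was not. The probe sequences were not analysed here, and binding of BEX2 RNA to the BEX1 probe or the reverse was not tested.

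BEX3, the p75NTR-associated cell death executor, differed little among the constructs. Its log2 signals were 5.89 in both empty vector clones, 5.66 in both TET1-CDwt clones, 6.03 and 5.86 in MBD-TET1-CDwt #3 and #10, and 5.60 and 5.76 in MBD-TET1-CDmut #9 and #10. MBD-TET1-CDwt overlapped with empty vector (difference 0.06, standard error 0.17) and lay above MBD-TET1-CDmut by 0.27. BEX4, a protein described on microtubules, ranged from 0.77 to 1.30, and its 2 ends were MBD-TET1-CDwt #10 and empty vector #2. All 4 BEX4 comparisons overlapped, with differences of -0.17 to 0.04.

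BEX5 differed more between clones of one construct than between most constructs. Its log2 signal was -1.78 in empty vector #1 and -4.04 in #2, which is 4.80-fold between 2 clones with the same plasmid. It was -2.43 and -1.62 in TET1-CDwt #2 and #5, -4.10 and -3.59 in MBD-TET1-CDwt #3 and #10, and -2.52 and -3.66 in MBD-TET1-CDmut #9 and #10. No 2 groups compared were free of overlap. The order of means was TET1-CDwt (-2.03), empty vector (-2.91), MBD-TET1-CDmut (-3.09), and MBD-TET1-CDwt (-3.84), and the difference of MBD-TET1-CDwt from empty vector was -0.93 (standard error 0.75). Without empty vector #1 that difference was 0.20, and without empty vector #2 the difference of TET1-CDwt was -0.25 in place of 0.88.

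Among the TCEAL genes, TCEAL7 had the widest range. TCEAL7, a protein described as a repressor of NF-kappaB signaling, gave -3.85 and -2.61 in empty vector #1 and #2 and -3.87 and -3.60 in TET1-CDwt #2 and #5. It gave -6.09 in MBD-TET1-CDwt #3 but -3.47 in #10, and -4.13 in MBD-TET1-CDmut #9 but -5.85 in #10. The low clone of each fusion was not well above background, and the other 6 arrays were. With the dim signals at the lowest signal well above background on their arrays, the sister clones differed at least 4.27-fold with the active fusion (MBD-TET1-CDwt) and at least 2.63-fold with the inactive one, and by 2.37-fold in empty vector and 1.21-fold in TET1-CDwt. The mean differences from empty vector, -1.55 with the active and -1.76 with the inactive fusion, had a standard error of 0.92. With each clone left out in turn, the former ranged from -2.86 (without MBD-TET1-CDwt #10) to -0.24 (without #3) and the latter from -2.62 (without MBD-TET1-CDmut #9) to -0.91 (without #10). Without empty vector #2 they were -0.93 and -1.14, and under normexp -0.32 and -0.41.

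**Figure D2:**
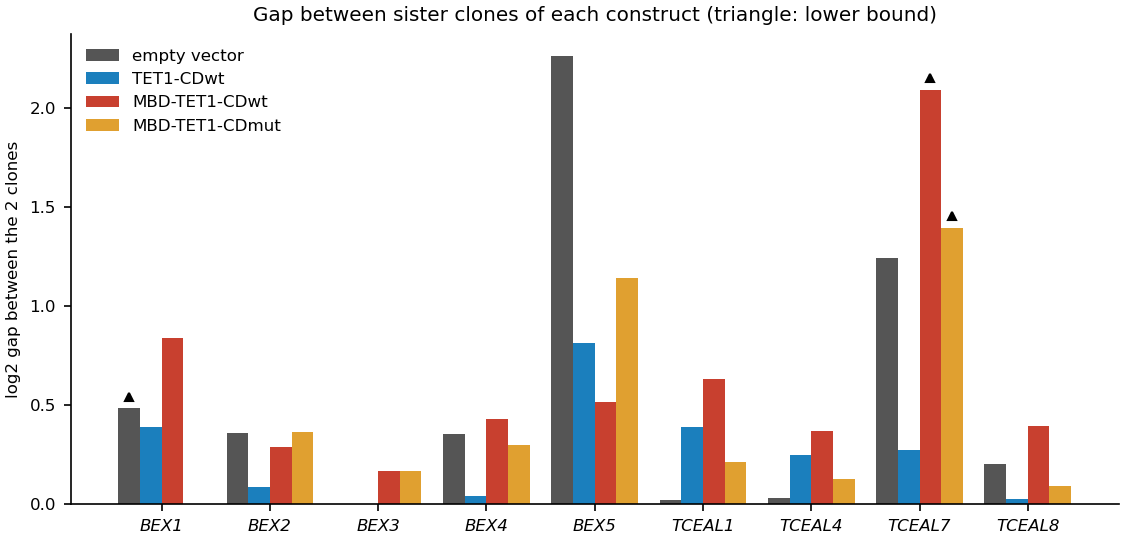
Absolute log2 difference between the 2 clones of each construct (vertical axis) for each member gene, with a bar per construct. A signal not well above background was set to the lowest signal that was, or kept if higher, which makes the bar a lower bound (triangle), and no bar is drawn for BEX1 in MBD-TET1-CDmut, where both signals were dim. BEX5 reached 2.26 in empty vector and TCEAL7 at least 2.09 in MBD-TET1-CDwt, and BEX3 and TCEAL4 have bars of at most 0.37.

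TCEAL1, TCEAL4, and TCEAL8 were well above background on all arrays and varied within narrow ranges. TCEAL1, a nuclear phosphoprotein that modulates transcription, gave 1.41 and 1.43 in empty vector, 1.38 and 0.99 in TET1-CDwt #2 and #5, 0.74 and 1.37 in MBD-TET1-CDwt #3 and #10, and 0.94 and 1.15 in MBD-TET1-CDmut #9 and #10. Both empty vector clones were thus above the other 6, by group differences of -0.23 to -0.37 (standard error 0.26). TCEAL4 ranged from 3.89 in MBD-TET1-CDwt #10 to 4.28 in empty vector #2. On its brighter probe TCEAL8 ranged from 2.68 in MBD-TET1-CDwt #3 to 3.27 in empty vector #1, and its other probe gave the same difference of MBD-TET1-CDwt from empty vector, -0.29.

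Of the 9 members, 0 passed a Benjamini-Hochberg adjusted p of 0.05 in limma in any of the 4 comparisons, where the share of all 22530 probes tested that passed was 0.115% for MBD-TET1-CDwt, 0.0% for TET1-CDwt, and 0.0% for MBD-TET1-CDmut against empty vector, and 0.102% for MBD-TET1-CDwt against MBD-TET1-CDmut. At an unadjusted p under 0.05 the members past it were BEX1 (higher) and BEX2 (lower) in both comparisons of MBD-TET1-CDwt, where 6.6% of all probes passed against empty vector and 6.84% against MBD-TET1-CDmut. None of the members did in TET1-CDwt, where 2.5% of probes passed, or in MBD-TET1-CDmut, where 2.68% did. Since these arrays were known when the members were chosen, nothing is read from these counts. The clones of MBD-TET1-CDwt and empty vector did not overlap for 3 of 9 members (BEX1, BEX2, and TCEAL1), near the 30.8% of all probes, and those of MBD-TET1-CDwt and MBD-TET1-CDmut for 3 of 9 (BEX1, BEX2, and BEX3), near the 36.0% of all probes. TET1-CDwt was free of overlap with empty vector for 3 of 9 members (27.7% of all probes) and MBD-TET1-CDmut for 5 of 9 (34.7% of all probes).
The median member difference from empty vector was -0.29 for MBD-TET1-CDwt, -0.11 for TET1-CDwt, and -0.19 for MBD-TET1-CDmut, beside medians of -0.02, -0.03, and -0.02 over all probes tested. For MBD-TET1-CDwt against MBD-TET1-CDmut it was 0.01, as it was over all probes. The 3 comparisons with empty vector share its 2 arrays. Below empty vector were 9 of 9 members for MBD-TET1-CDmut, 8 of 9 for TET1-CDwt, and 7 of 9 for MBD-TET1-CDwt, whereas 6 of 9 were above MBD-TET1-CDmut in MBD-TET1-CDwt. The share of all probes in each direction was not counted, so nothing is read from these directions. For BEX1, the small differences of TET1-CDwt and MBD-TET1-CDmut from empty vector, -0.01 and -0.03, turned sign under median scaling and under quantile normalization. Under normexp they were -0.47 and -0.03, so the difference of TET1-CDwt did not stay small in every setting.

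In RefSeq order, RAB40AL came just before BEX1 and NXF3, a relative of the RNA export factor NXF1, just after. Both were well above background on all 8 arrays, and their differences of MBD-TET1-CDwt from empty vector were -0.06 and -0.07. Of the 37 protein-coding genes of the stretch that holds the family, 25 other than BEX1 were tested. Their differences in MBD-TET1-CDwt lay between -1.55 (TCEAL7) and 0.38 (TMEM31), with a median of -0.18, and 0 of the 25 were 2-fold higher. Of all probes tested, only 3.21% differed 2-fold in either direction, so nothing is read from this count. With MBD-TET1-CDmut as the comparator, within slide 2, the differences of these 25 genes lay between -0.80 (ARMCX3) and 0.53 (TMEM31).

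**Figure D3:**
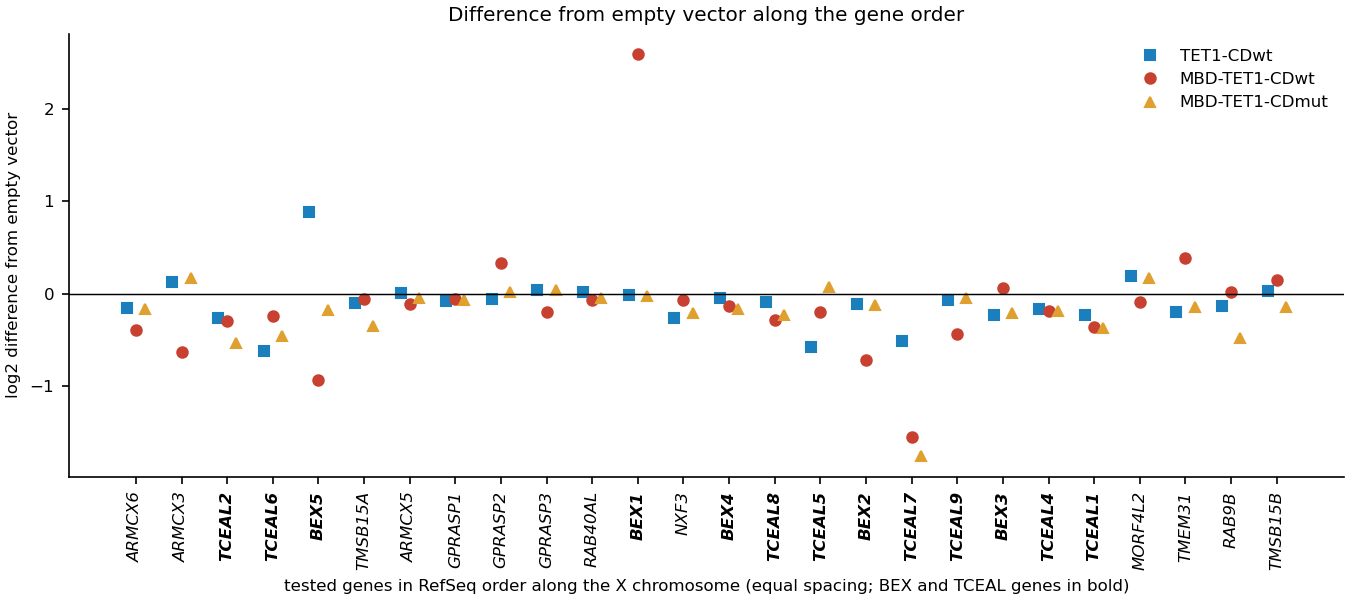
Log2 difference of each construct from empty vector (vertical axis) for the 25 tested genes of the stretch and BEX1, in RefSeq order along the X chromosome with equal spacing. BEX1 in MBD-TET1-CDwt stands at 2.59, both of its neighbors lie near 0, and TCEAL7 is at -1.55 with the active and -1.76 with the inactive fusion.

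No gene of the other lists passed the adjusted test in limma in any of the 4 comparisons. Of the 7 other family and TFIIS genes, all tested, 1 passed an unadjusted p under 0.05 against empty vector in MBD-TET1-CDwt, the elongation factor gene TCEA3. Its log2 signals were -4.34 in #3 and -2.23 in #10, against -5.25 and -4.69 in empty vector, -5.08 and -5.16 in TET1-CDwt, and -4.85 and -5.73 in MBD-TET1-CDmut, the last not well above background. Clone #10 stood apart for this gene, with differences of 1.68 from empty vector and 2.01 from MBD-TET1-CDmut. TCEAL2 differed from empty vector by -0.29, TCEAL9 by -0.43, and TCEA2 by 0.32 in MBD-TET1-CDwt.

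Among the 26 tested Xq22 neighbor genes, 1 passed the unadjusted threshold in MBD-TET1-CDwt against empty vector. This was ARMCX3, a mitochondrial armadillo-repeat gene, at -2.25 and -2.07 in MBD-TET1-CDwt against -1.62 and -1.45 in empty vector and -1.31 and -1.42 in MBD-TET1-CDmut. The difference of MBD-TET1-CDwt was -0.63 from empty vector and -0.80 from MBD-TET1-CDmut. ESX1, a homeobox gene, had a larger mean difference of 1.10, but its empty vector clones were at -4.65 and -3.18 and overlapped with -3.36 and -2.28 in MBD-TET1-CDwt. ARMCX6 differed by -0.39 and TMEM31 by 0.38.

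Of 14 tested genes among reported partners of BEX proteins and the p75NTR pathway, 2 passed the unadjusted threshold in MBD-TET1-CDwt against empty vector, MYC and the cyclin gene CCND1, both lower. CCND1 was at -1.90 and -2.30 in MBD-TET1-CDwt and between -1.49 and -1.22 on the other 6 arrays, with differences of -0.74 from empty vector and -0.82 from MBD-TET1-CDmut. MYC was at 3.05 and 3.97 in MBD-TET1-CDwt and 3.50 and 3.63 in MBD-TET1-CDmut, against 4.49 and 4.15 in empty vector. Its differences from empty vector were -0.81 with the active and -0.76 with the inactive fusion, and the fusions differed by -0.05.
NGFR, the gene of p75NTR, was at -6.07 and -5.31 in MBD-TET1-CDwt, the former not well above background, and at -5.15 and -4.85 in empty vector. It was -3.81 and -4.47 in TET1-CDwt and -3.98 and -4.52 in MBD-TET1-CDmut, and MBD-TET1-CDwt differed from MBD-TET1-CDmut by -1.44. In TET1-CDwt against empty vector, NGFR (0.86) and ARMCX4 passed the unadjusted threshold, and in MBD-TET1-CDmut MYC, TCEAL2 (-0.53), TIMM8A, and RBFOX3 did. ARMCX4 and TIMM8A were named after their values were seen.

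Neuronal markers, which BEX genes accompany in brain, gave no common direction. Of 7 tested of 12, RBFOX3 and MAP2 passed the unadjusted threshold in MBD-TET1-CDwt. RBFOX3, the gene of the NeuN antigen, was at -0.42 and -0.36 in MBD-TET1-CDwt, below 0.13 and 0.62 in empty vector and 1.36 and 0.94 in MBD-TET1-CDmut. MAP2, a microtubule protein of dendrites, was higher than empty vector by 0.99 with the active and 0.72 with the inactive fusion. SNAP25 differed by -0.22 and UCHL1 by -0.29 in MBD-TET1-CDwt.

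The genes most like BEX1 over the 8 arrays, by Pearson r among tested probes, were SLC4A1 (0.990), VCY (0.990), VCX2 (0.980), CTAG1A (0.979), and NEFH (0.971). CTAG1A, a cancer-testis antigen, was at 0.54 and -0.94 in MBD-TET1-CDwt and between -4.72 and -2.89 elsewhere. NEFH, the heavy neurofilament, exceeded background on the 2 MBD-TET1-CDwt arrays and no others, at -4.46 and -4.79. SLC4A1 was also highest in the MBD-TET1-CDwt clones but ranged only from -3.37 to -3.08. VCX2 and VCY belong to near-identical families, and their probes may read the same transcripts.
The genes most like TCEAL7 were FAM226A (0.967), LRCH1 (0.954), GMIP (0.946), BLVRB (0.946), and UCK1 (0.937), each lowest in MBD-TET1-CDwt #3 and MBD-TET1-CDmut #10. For example, BLVRB was at 3.35 and 3.33 on these arrays and between 3.59 and 3.76 on the other 6. These correlations share the arrays and were picked as the highest of the 22530 probes.

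Of the 10 members, 9 had a RefSeq promoter window and TCEAL7 is named only. Their 14 windows held 5 to 32 CG dinucleotides. BEX3 spanned the widest range over its start sites, with 7, 23, and 32. TCEAL3 had 30, BEX4 16 and 17, BEX5 14 and 13, TCEAL8 14, TCEAL4 12, and TCEAL1 5 and 14. BEX1, with 25, was within the range of BEX3. The part of CG number in expression was not tested.
An 8-base word, ACGTGACC, was the one most members shared, read on either strand. It was found in 7 of the 9 (BEX1, BEX3, BEX4, BEX5, TCEAL1, TCEAL3, and TCEAL8), in 9 of 14 windows, and in 1.51% of all windows. In the BEX1 window and in the BEX3 window shown above it began at position -46. In 6 of these 7 genes, BEX5 being the exception, the window also held the E-box CACGTG, with which the word shares bases. This 6-base palindrome with a central CG was found in 8 of the 9 members, BEX2 included, and in 7.26% of all windows. The 8-base word was picked as the most shared, so its count is a description, as is each match.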

How the data were processed

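Cy-3 labeled cRNA from 8 stable HEK293T lines was hybridized to Agilent 4x44K v2 arrays. The deposited intensity values are processed signals of Agilent Feature Extraction (10.7.3.1 in the file headers, 9.5.1 in the submitters' processing notes), background-subtracted by the authors and not scaled between arrays. The series table repeats them. The methods name no normalization.

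Control spots and feature outliers (213 to 269 per array) were left out, log2 signals were reduced by the array's 75th percentile, and spots of a probe were averaged. limma 3.58.1 (R 4.3.3, with Python 3.11.15) was fitted with 4 group means (4 residual degrees of freedom) to the 22530 probes measured on all arrays and called well above background in both clones of 1 group or more, and p-values were adjusted by Benjamini-Hochberg. The fit was tested on simulated data. A gene is given by its brightest probe, named through RefSeq accessions (25419 of 34127 probes). A fold against signals not well above background takes the lowest signal that was, which lay between -6.01 and -5.51, or the probe's own value if higher. Precision is limited by 2 arrays per group, each from a separate clone.

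The members and lists were chosen with earlier results of these data known. From each list up to 4 genes with the largest difference in MBD-TET1-CDwt are named, with the 5 genes most like each of the 2 members of widest range, and some genes under this rule are not reported here. The alternatives were another background correction, median and quantile scaling, other filters, fits, and probes, and leaving out each clone.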

Additional observations from a re-analysis of the deposited data

How the results depend on the processing

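With 1 clone left out, the number of members called went from 0 to between 0 and 1 in both comparisons of MBD-TET1-CDwt, the 1 being BEX1 without MBD-TET1-CDwt #10. The median member difference of MBD-TET1-CDwt from empty vector lay between -0.49 and -0.20, with -0.20 without empty vector #1 and -0.49 without MBD-TET1-CDwt #10, and that from MBD-TET1-CDmut between -0.26 and 0.14, with -0.26 without MBD-TET1-CDwt #10. The Xq22 neighbor genes had between 0 and 1 called, the 1 being IL1RAPL2 without MBD-TET1-CDmut #10. The cause was not tested. Of single-gene differences, 343 moved by less than the spread between clones and 9 by more, all under normexp, median scaling, or quantile normalization. The largest was BEX1 in MBD-TET1-CDwt under normexp, which was run on the median signals after the files were seen to hold no mean signals. As the spread between clones was taken, leaving out a clone could not move a difference by more than it. Settings that kept a gene's probe and arrays repeated the main value. Apart from the second probe of TCEAL8, only normexp, median scaling, and quantile normalization could give a larger move. The 343 therefore do not measure stability. BEX1 and TCEAL7 left the filter that asked for all 8 arrays well above background. No paired analysis was possible because the clones were isolated independently, and a clone number that occurs in 2 groups does not pair them.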
